A study of Homo sapiens with 4 samples.

Results

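The matrix metalloproteinase (MMP) transcripts of TPC1 cells, a line established from a human papillary thyroid cancer, were described by taking every MMP family gene listed in the deposited expression table. These were 10 of 13165 genes, namely MMP1, MMP2, MMP9, MMP14, MMP15, MMP16, MMP17, MMP19, MMP24 and MMP28. Other human MMP genes were not analysed here. Both groups were stable TPC1 lines selected with 0.5 μg/mL puromycin for 2 weeks. TPC1-Vector carried the empty retroviral vector, and TPC1-C1orf106 carried the same vector with C1orf106, the gene now named INAVA. RNA was sequenced from 2 libraries in each group, and it is not stated whether these came from separate cultures or from more than 1 selection. The deposited values are FPKM, that is, fragment numbers scaled to the length of the transcript and to the mapped fragments of the library, and each gene has 1 value per group. Replicate libraries had already been merged by the authors, so no value below has an SD, no test between the groups was run, and the number of reads behind a value is unknown. All FPKM values below are the authors' values for the group.

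MMPs are zinc-dependent endopeptidases that cut the proteins of the extracellular matrix and many cell surface proteins. They are made as inactive zymogens, in which a cysteine of the propeptide holds the catalytic zinc until the propeptide is removed. Some are secreted and are activated outside the cell by other proteases, whereas the membrane types are cut by furin-like convertases on their way to the cell surface. Tissue inhibitors of metalloproteinases (TIMPs) block the active enzymes. In thyroid cancer, gelatinases have been studied for their part in invasion.

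The labels were first checked. C1orf106 was at 7.96 FPKM in vector cells and 123 FPKM in TPC1-C1orf106. Median FPKM over the 12305 genes averaging 0.5 FPKM or more was 11.3 in each group, so typical genes were on a common scale. Summed FPKM over all genes was 2.03e+06 in vector cells and 467066 in TPC1-C1orf106. Without its largest entry, the sum in vector cells was 459393. Of 14 thyroid follicular markers, 3 were measured, with PAX8 at 60.1 and 55.7 FPKM, while TG, TSHR and SLC5A5 were not analysed here. Of 9 epithelial and papillary carcinoma markers, 5 were measured, of which 4 were higher and 1 was lower in TPC1-C1orf106. Of all genes kept, 50.8% were higher. The lower marker was KRT8, which pairs with KRT18 in simple epithelia, at 23.4 FPKM in vector cells and 10.5 FPKM in TPC1-C1orf106. It was the 1 gene of the list past 2-fold, where 0.244% of all genes were at least 2-fold lower. KRT18 was at 140 and 212 FPKM. The table gives KRT8 and KRT18 the same interval (chr12:52897187-52952901), and how reads were divided between them was not tested. Of 6 endothelial markers, TEK was measured, at 0.46 and 0.359 FPKM. Macrophages and neutrophils also express MMP9. Of 8 leukocyte markers, 2 were measured, with summed levels of 6.06 FPKM in vector cells and 8.91 FPKM in TPC1-C1orf106. CD14 was at 0.295 and 0.236 FPKM, and CD68, a lysosomal protein that is not restricted to macrophages, was at 5.76 and 8.67 FPKM. The part of other cells in the MMP values was not tested.

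The enzymes share a zinc-binding stretch, in which 3 histidines hold the zinc and a glutamate takes part in catalysis. The coding bases of this stretch are shown for 9 of the genes to let the family be compared at its active site. They were read 5′ to 3′ along the coding strand from GENCODE release 29 transcripts on GRCh38, and each lies within 1 coding exon. Capitals mark the codons of the histidines, the glutamate and the conserved glycine. No sequence of MMP16 is shown.
MMP1 (chr11:102795549-102795581, minus strand, exon 5): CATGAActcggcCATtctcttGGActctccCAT
MMP2 (chr16:55491827-55491859, plus strand, exon 8): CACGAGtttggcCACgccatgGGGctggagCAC
MMP9 (chr20:46012453-46012485, plus strand, exon 8): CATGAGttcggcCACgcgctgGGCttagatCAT
MMP14 (chr14:22843283-22843315, plus strand, exon 5): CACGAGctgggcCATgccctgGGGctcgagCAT
MMP15 (chr16:58040563-58040595, plus strand, exon 5): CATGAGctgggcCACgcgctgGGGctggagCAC
MMP17 (chr12:131841659-131841691, plus strand, exon 5): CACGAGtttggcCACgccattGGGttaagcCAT
MMP19 (chr12:55839596-55839628, minus strand, exon 5): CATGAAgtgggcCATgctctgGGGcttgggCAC
MMP24 (chr20:35263817-35263849, plus strand, exon 5): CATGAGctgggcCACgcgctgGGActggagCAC
MMP28 (chr17:35770167-35770199, minus strand, exon 5): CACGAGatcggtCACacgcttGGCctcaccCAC
Of the 33 bases, 16 were the same in all 9 sequences. MMP15 and MMP24, both membrane types, differed at 1 base, and MMP14 and MMP15 differed at 5. The gelatinases MMP2 and MMP9 differed at 9 bases, and MMP1 and MMP2 at 15.

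A further motif separates enzymes that furin-like convertases can cut from those activated outside the cell. It was searched as arginine, any residue, lysine or arginine, and arginine, within 60 residues after the conserved stretch that holds the propeptide cysteine. It was found in 5 of the 9 genes. These are the membrane types and MMP28. The motif was not found in that window in MMP1, MMP2, MMP9 and MMP19. In the coding bases below, capitals mark the codons that the motif fixes.
MMP14 (chr14:22841977-22841988, plus strand, exon 3): CGAaggAAGCGC
MMP15 (chr16:58038336-58038347, plus strand, exon 3): CGTcggAAGCGC
MMP17 (chr12:131838683-131838694, plus strand, exon 3): CGCaggAGACGC
MMP24 (chr20:35251963-35251974, plus strand, exon 3): AGAaacAAGCGC
MMP28 (chr17:35778901-35778912, minus strand, exon 3): CGTaagAAACGC
A match describes the sequence and does not show that the protein is cut there.

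As shown in the plot of MMP levels, MMP14 was by far the most abundant of the 10 transcripts in each group. FPKM is scaled to transcript length, so levels of different genes can be set side by side. MMP14 made up 73.2% of the summed FPKM of the MMPs in TPC1-Vector and 74.5% in TPC1-C1orf106. It was also the only MMP above the median level of all genes kept. In TPC1-Vector, MMP14 was followed by MMP2, MMP16, MMP17 and MMP15, and the other 5 genes were each under 1 FPKM. The same 5 genes led in TPC1-C1orf106, in the same order. The order of the weak genes was not the same in the groups. MMP9 was last of 10 in TPC1-Vector and at place 6 in TPC1-C1orf106, and MMP1 went from place 9 to place 7. Without a spread between libraries, it cannot be said which neighbours in this order differed. The sum over the 10 genes was 89.4 FPKM in vector cells and 112 FPKM in TPC1-C1orf106. Of the difference of 22.9 FPKM, MMP14 alone gave most, since the other 9 genes together differed by 4.65 FPKM.

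**Figure D1:**
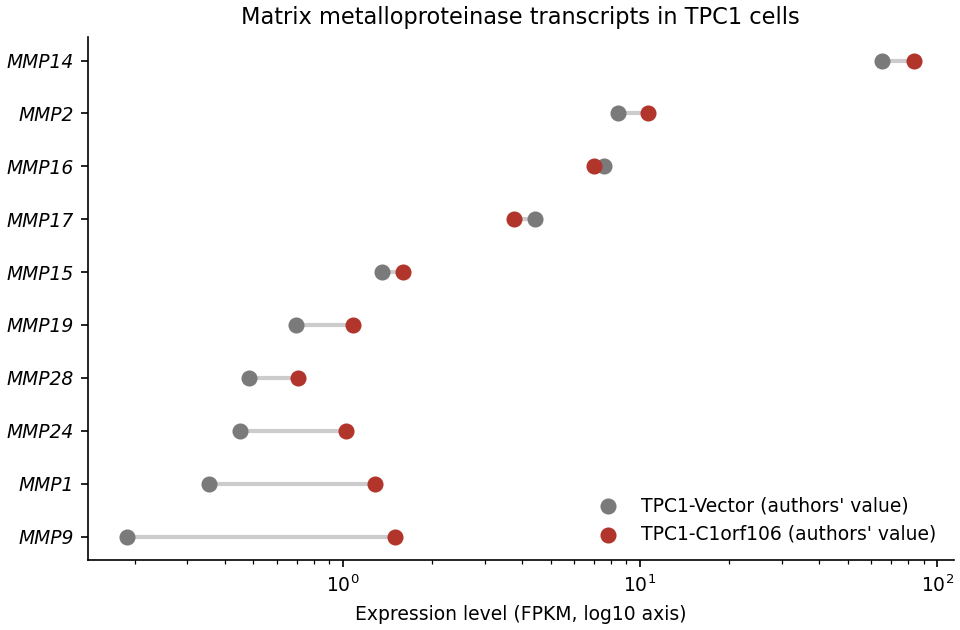
Expression of the 10 MMP genes in FPKM on a log10 axis, with 1 point for each group (the authors' value, no error available), ordered by the level in TPC1-Vector. MMP14 stands at 65.5 and 83.7 FPKM, and the widest gaps are those of MMP9 and MMP1, whose points in TPC1-Vector lie below 0.5 FPKM.

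Differences between the groups were then computed as log2(FPKM + 0.5) in TPC1-C1orf106 minus that in TPC1-Vector. The added 0.5 FPKM, the pseudocount, keeps very low values from giving very large ratios and understates the difference of weak genes. All 10 MMPs averaged 0.5 FPKM or more, but MMP1, MMP9, MMP24 and MMP28 were below 0.5 FPKM in TPC1-Vector. These genes passed only through their TPC1-C1orf106 value, so they could only count as higher. Every MMP called below at 1.5-fold or 2-fold is among them. Of the 10 MMPs, 8 were higher and 2 were lower in TPC1-C1orf106, where 50.8% of all 12305 genes were higher and 49.2% lower. The median log2 difference of the MMPs was 0.34, against 0.0033 over all genes. MMP1 and MMP9 were at least 2-fold higher, as were 0.61% of all genes, and no MMP was at least 2-fold lower, as were 0.244% of all genes. At least 1.5-fold higher were 3 MMPs, the additional gene being MMP24, against 2.24% of all genes. None was at least 1.5-fold lower, against 1.45% of all genes. Large differences were more frequent among weak genes, and of 1898 genes with a mean between 0.5 and 2 FPKM, 1.48% were at least 2-fold higher and 5.64% at least 1.5-fold higher. In this range were 6 of the MMPs, including the 3 just named. The 4 MMPs averaging 2 FPKM or more had differences between -0.21 and 0.35. These are samples of bulk RNA, so a higher value from more cells with the transcript and one from more transcript per cell cannot be told apart.

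**Figure D2:**
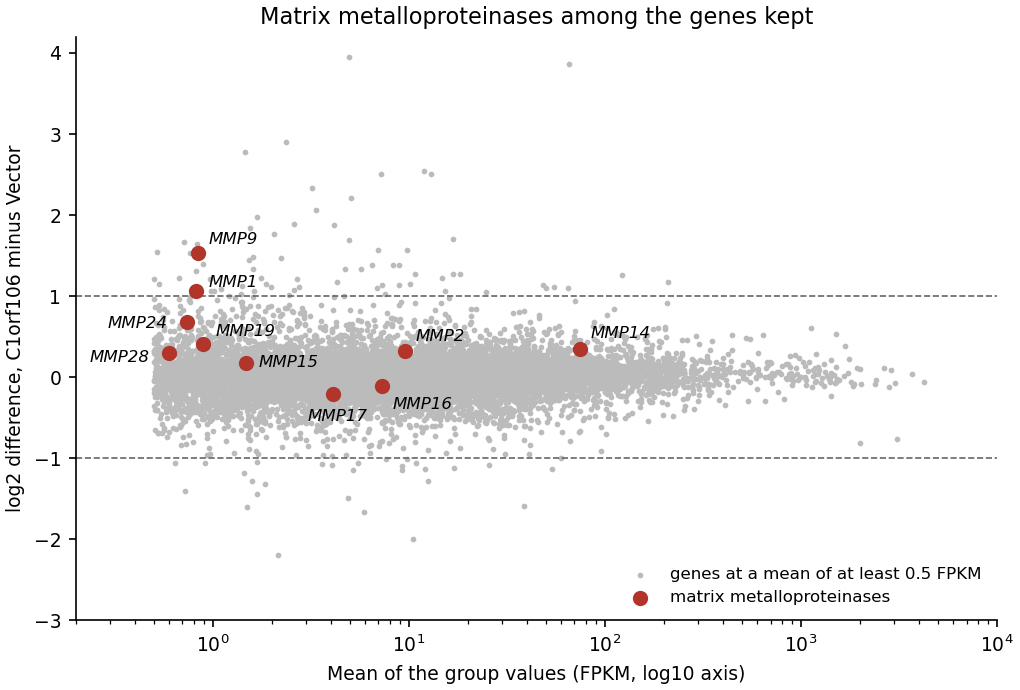
Log2 difference (TPC1-C1orf106 minus TPC1-Vector, 0.5 FPKM added) against the mean of the group values on a log10 axis for genes averaging 0.5 FPKM or more (grey) and the 10 MMPs (red), with dashed lines at 2-fold and 4 genes outside the axes. MMP9 and MMP1 lie above the upper line among weakly expressed genes, and MMP14 lies at 0.35 among strongly expressed ones.

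MMP1, the interstitial collagenase, cuts the triple helix of fibrillar collagens. It was at 0.354 FPKM in vector cells and 1.28 FPKM in TPC1-C1orf106. The ratio of these values was 3.62, and the log2 difference with 0.5 added was 1.06. Of the 12305 genes kept, 67 had a larger difference. The table places MMP1 at chr11:102783676-102843611 (hg38), an interval 7.27 times as long as the GENCODE gene. This interval also overlaps MMP3, which encodes a stromelysin, and part of the pseudogene WTAPP1 on the opposite strand. The part of MMP3 in the MMP1 value was not tested. WTAPP1 shares 150 of the 1970 exonic bases of MMP1. Strand handling is not given in the sources used here, so reads of MMP1 and of WTAPP1 in these bases cannot be told apart. By Euclidean distance of log2(FPKM + 0.5) over the 2 group values, ELMOD1, ECSCR and BCL2A1 were nearest to MMP1.

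The gelatinases MMP2 and MMP9 degrade denatured collagens and type IV collagen of basement membranes. MMP2 (chr16:55478830-55506691) was the second most abundant MMP, at 8.42 FPKM in vector cells and 10.7 FPKM in TPC1-C1orf106, with a log2 difference of 0.32. MMP9 (chr20:46008908-46016561) was at 0.188 FPKM in vector cells and 1.5 FPKM in TPC1-C1orf106. Its ratio of 7.94 was the largest of the 10 MMPs, and its log2 difference was 1.54. Only 24 genes had a larger difference. The transcript stayed weak beside the other gelatinase. MMP2 was at 44.7 times the level of MMP9 in TPC1-Vector and at 7.13 times its level in TPC1-C1orf106. Together, the gelatinases made up 9.62% of the summed MMP level in TPC1-Vector and 10.8% in TPC1-C1orf106. In GENCODE, the antisense gene SLC12A5-AS1 shares 430 of the 2336 exonic bases of MMP9, and its part in the MMP9 value was not tested. Nearest to MMP9 over the 2 group values were LTB, TRIM22 and BTBD11. These lists of nearest genes rest on 2 values per gene and describe likeness only.

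The transmembrane MMPs cut matrix at the cell surface. MMP14 also activates pro-MMP2, which it binds through TIMP2. MMP14 (chr14:22836533-22847599) was at 65.5 FPKM in vector cells and 83.7 FPKM in TPC1-C1orf106, with a log2 difference of 0.35. MMP14 and MMP2 kept their proportion, with MMP14 at 7.78 times the level of MMP2 in TPC1-Vector and 7.86 times in TPC1-C1orf106. MMP15 (chr16:58025378-58046900) was at 1.36 and 1.59 FPKM, a log2 difference of 0.17. MMP16 (chr8:88037232-88327488) was at 7.58 and 7.01 FPKM, a log2 difference of -0.11. These differences were small beside that of MMP24. MMP24 was at 0.449 FPKM in vector cells and 1.02 FPKM in TPC1-C1orf106, with a ratio of 2.28 and a log2 difference of 0.68. The table gives MMP24 and its antisense transcript MMP24-AS1 the same interval (chr20:35226736-35278157). MMP24-AS1 was at 11.2 and 15.0 FPKM, so MMP24 was at 3.99% of its level in TPC1-Vector and 6.81% in TPC1-C1orf106. Under the name MMP24OS, the antisense gene shares 799 of the 4414 exonic bases of MMP24, and how reads were divided between them was not tested. Summed over MMP14, MMP15, MMP16 and MMP24, levels were 74.9 FPKM in vector cells and 93.4 FPKM in TPC1-C1orf106. MMP17, a membrane type held by a glycolipid anchor in place of a transmembrane segment, was lower in TPC1-C1orf106. It was at 4.42 FPKM in vector cells and 3.76 FPKM in TPC1-C1orf106, a log2 difference of -0.21 (chr12:131828396-131851771).

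MMP19 and MMP28 are secreted enzymes outside the collagenase and gelatinase groups, and MMP28 is also called epilysin. MMP19 was at 0.696 FPKM in vector cells and 1.08 FPKM in TPC1-C1orf106, with a log2 difference of 0.41. Its interval in the table (chr12:55818022-55842983) is shared with DNAJC14, ORMDL2 and TMEM198B. DNAJC14 was at 15.9 and 15.4 FPKM, and ORMDL2 at 19.9 and 18.0 FPKM, and neither was higher in TPC1-C1orf106. TMEM198B, on the opposite strand, shares 814 of the 4672 exonic bases of MMP19 and was at 0.534 and 0.552 FPKM. MMP28 was at 0.485 FPKM in vector cells and 0.707 FPKM in TPC1-C1orf106, with a log2 difference of 0.29. The table places MMP28 on an alternate contig of chromosome 17, whereas GENCODE has it on the primary chromosome (chr17:35756249-35795707). Reads could match either copy, and its value is therefore uncertain. All 5 secreted MMPs were higher in TPC1-C1orf106, with a median log2 difference of 0.41. Of the 5 membrane types 3 were higher, with a median of 0.17, where 50.8% of all genes were higher. The secreted MMP1, MMP9 and MMP28 and the membrane type MMP24 passed the filter only through their TPC1-C1orf106 value. These genes could therefore only count as higher. The grouping by location also ran together with level. In TPC1-Vector, 4 of the secreted MMPs were under 1 FPKM and 4 of the membrane types were above it. Location and level therefore cannot be told apart.

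The size of the differences of weak MMPs depended on the pseudocount. With 0.1 FPKM added, the log2 difference of MMP9 was 2.47, and with 1 FPKM added it was 1.07. For MMP1, the difference was 1.86 with no pseudocount and 0.75 with 1 FPKM added, which is under 2-fold. MMP24 passed 2-fold with 0.1 FPKM added, at 1.03, and with no pseudocount, at 1.19, where 1.23% of all genes did. MMP14 stayed between 0.31 and 0.36 over the 8 alternatives run for it. Minus the median difference of genes within 5 Mb, which was not among these, it was 0.39.

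**Figure D3:**
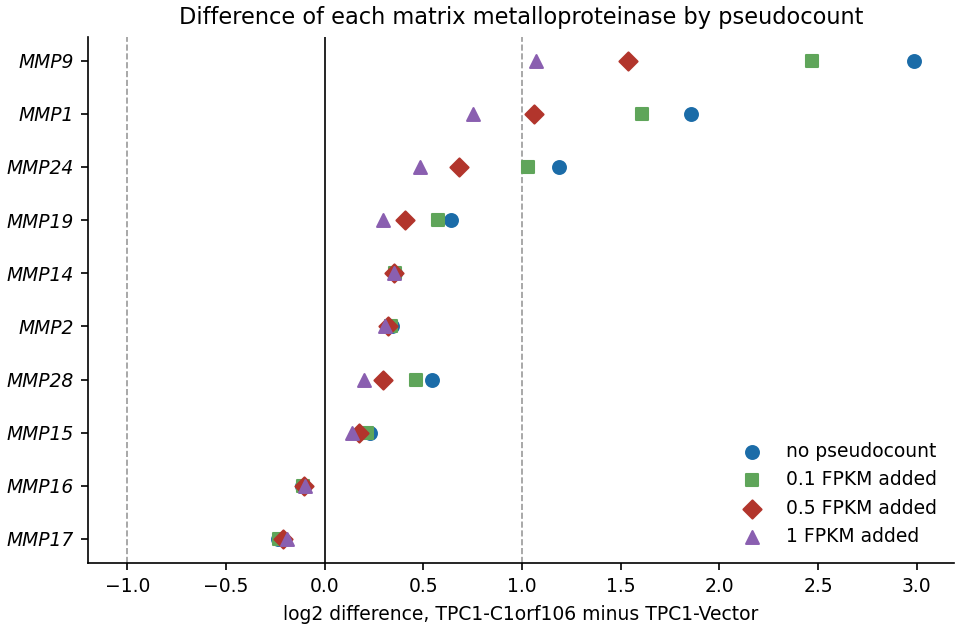
Log2 difference of each MMP (TPC1-C1orf106 minus TPC1-Vector) with no pseudocount and with 0.1, 0.5 or 1 FPKM added, with dashed lines at 2-fold. MMP9 lies above 2-fold at every setting, MMP1 at 3 of the 4 settings, and MMP16 and MMP17 lie below 0 at each.

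Neighbouring genes were compared next, because genes of some chromosomal stretches differ together between these lines. For each MMP, the median log2 difference of the other genes within 1 Mb on each side averaging 1 FPKM or more was taken. MMP1, MMP9, MMP19, MMP24 and MMP28 themselves averaged under that minimum. For them, a weak gene is therefore set beside stronger ones, and large differences were more frequent among weak genes. For MMP9, 20 of 22 neighbours were higher in TPC1-C1orf106, where 50.8% of all genes averaging 0.5 FPKM or more were higher. The neighbours had a median of 0.35, and the difference of MMP9 exceeded this median by 1.19. With 5 Mb on each side, the excess was 1.20. Of the 22 neighbours within 1 Mb, 1 had a larger difference than MMP9. This was SLPI, which encodes a secreted inhibitor of serine proteases, at 0.162 FPKM in vector cells and 9.74 FPKM in TPC1-C1orf106. Its start lies 0.757 Mb from that of MMP9. The neighbourhood of MMP1 did not show such a shift, with a median of 0.019 over 6 genes, and the excess of MMP1 was 1.04. MMP24, on the same chromosome as MMP9, had 27 neighbours with a median of 0.066 and an excess of 0.62. The 20 neighbours of MMP14 had a median of 0.03, and the excess of MMP14 was 0.32. MMP2 was higher while its 7 neighbours had a median of -0.11. MMP16 had 0 such neighbours within 1 Mb. For the other MMPs, neighbourhood medians lay between -0.038 for MMP28 and 0.03 for MMP17.

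**Figure D4:**
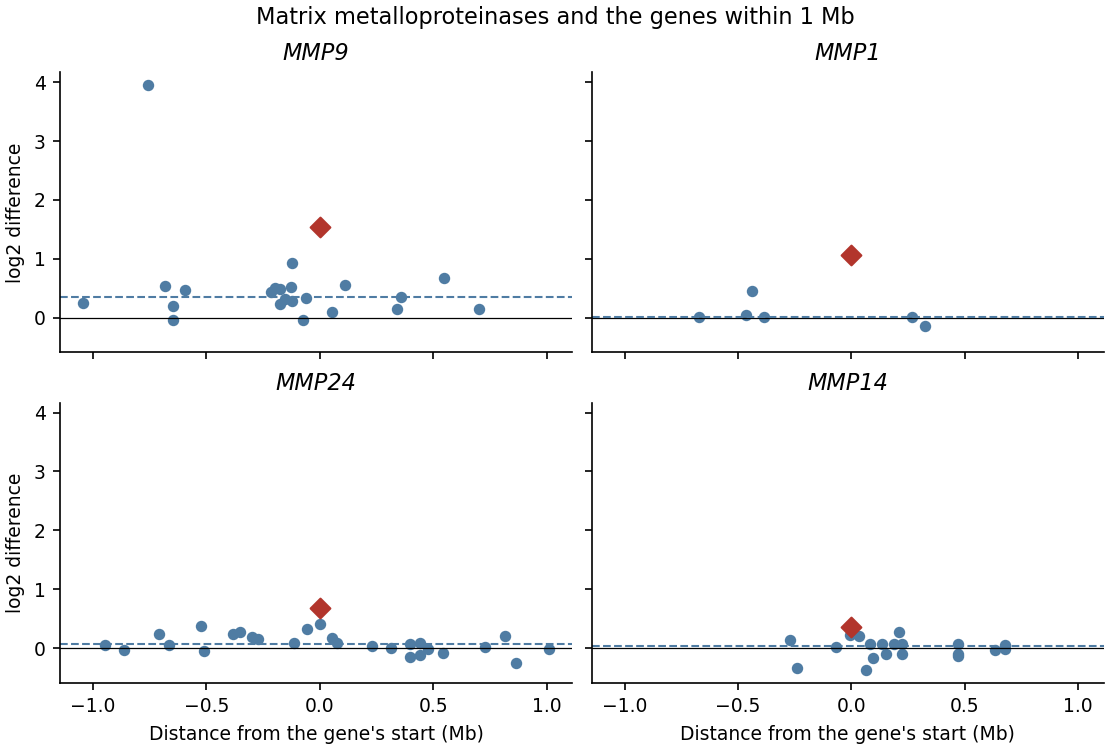
Log2 difference of the genes within 1 Mb (blue, averaging 1 FPKM or more) by distance from the start of MMP9, MMP1, MMP24 or MMP14 (red diamond), with the median of the neighbours as a dashed line. The neighbours of MMP9 lie around 0.35 and those of the other genes nearer 0, and SLPI is the point close to 4.

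Inhibitors of the MMPs were not uniform. Of 12 genes listed, 6 were measured, of which 4 were higher and 2 lower, where 50.8% of all genes were higher. Their median log2 difference was 0.38. The counts and the median include TSPAN12, a tetraspanin rather than an established inhibitor, at 2.67 and 3.12 FPKM, a log2 difference of 0.19. TIMP1, which inhibits most secreted MMPs and binds pro-MMP9, was at 74.7 FPKM in vector cells and 116 FPKM in TPC1-C1orf106, a log2 difference of 0.63. TIMP2 was lower, at 91.0 FPKM in vector cells and 63.0 FPKM in TPC1-C1orf106, a log2 difference of -0.53. In TPC1-Vector, MMP14 was at 0.719 times the level of TIMP2, and in TPC1-C1orf106 at 1.33 times its level. MMP9 was at 0.00252 times the level of TIMP1 in TPC1-Vector and 0.0129 times in TPC1-C1orf106, so TIMP1 remained far more abundant as RNA. RECK, a membrane-anchored inhibitor, was at 3.15 and 2.78 FPKM. SPOCK1, a matrix proteoglycan of the testican family, was the 1 gene of the list at least 2-fold higher, as were 0.61% of all genes. It was at 6.09 FPKM in vector cells and 15.4 FPKM in TPC1-C1orf106. TFPI2, a serine protease inhibitor of the matrix, was at 4.48 and 6.93 FPKM. TIMP3 was not analysed here.

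Of 16 zymogen activators listed, 7 were measured, of which 5 were higher, against 50.8% of all genes, and their median was 0.28. PLAU, the urokinase that generates plasmin, was the most abundant of them in TPC1-Vector, at 288 FPKM in vector cells and 218 FPKM in TPC1-C1orf106. Its log2 difference of -0.40 stood beside a median of -0.31 over its 24 neighbours on chromosome 10. CTSB, the lysosomal protease cathepsin B, was at least 2-fold higher, as were 0.61% of all genes. It was at 128 FPKM in vector cells and 290 FPKM in TPC1-C1orf106, the highest level of the list in that group. PLAUR, the urokinase receptor, had a log2 difference of 0.62, and PLAT, the tissue plasminogen activator, one of 0.85 at 1.56 and 3.22 FPKM. FURIN, the convertase whose motif is shown above, was at 21.3 and 23.1 FPKM, a log2 difference of 0.11.

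**Figure D5:**
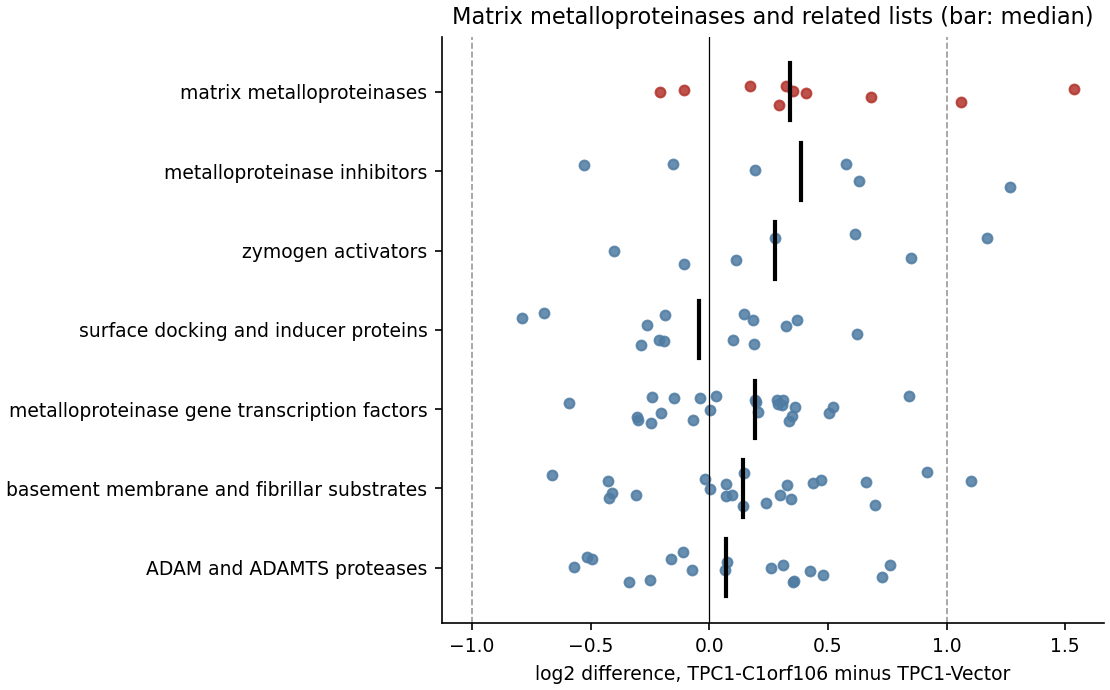
Log2 difference (TPC1-C1orf106 minus TPC1-Vector) of the 10 MMPs (red) and of the measured genes of 6 related lists (blue) averaging 0.5 FPKM or more, spread vertically for legibility, with a bar at the median of each list and dashed lines at 2-fold. The medians of the MMPs, inhibitors and activators lie between 0.28 and 0.38, and that of the docking and inducer proteins at -0.043.

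Genes listed as docking or inducing MMPs were as often lower as higher, with 7 of 14 measured genes each way, where 50.8% of all genes were higher. Not all encode surface proteins. The lower genes include the secreted SPP1 and the collagen chaperone SERPINH1, the latter with a log2 difference of -0.19. The median of the 14 genes was -0.043, which was -0.19 at a minimum mean of 1 FPKM. ITGB1, the integrin β1 chain, was the most abundant, at 504 and 573 FPKM. CLDN1, a tight junction protein, had a log2 difference of -0.79, and SPP1, the secreted glycoprotein osteopontin, one of -0.70. DDR2, a collagen receptor, was at 0.337 and 0.79 FPKM. Of 24 transcription factors known to bind MMP promoters, all 24 were measured. Of these, 15 were higher, against 50.8% of all genes, and their median was 0.19. None was at least 2-fold higher or lower, against 0.61% and 0.244% of all genes. The AP-1 subunit FOSL1 was the most abundant, at 168 FPKM in vector cells and 136 FPKM in TPC1-C1orf106. The epithelial ETS factor ELF3 was at 0.91 and 2.03 FPKM, and the AP-1 subunit FOSB at 1.07 and 1.75 FPKM. ETV5, another ETS factor, had a log2 difference of -0.59, beside -0.29 for its 14 neighbours on chromosome 3.

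Among matrix substrates, 22 of 32 listed genes were measured and 16 were higher, against 50.8% of all genes, and their median was 0.14. FN1, fibronectin, was at 144 and 272 FPKM, and the matrix glycoprotein TNC at 8.02 and 13.3 FPKM. The ADAM and ADAMTS proteases are related families of metalloproteinases. Of 18 genes kept, 10 were higher, against 50.8% of all genes, and none was at least 2-fold higher, against 0.61% of all genes, with a median of 0.072. ADAM9, a membrane-bound sheddase, was the most abundant, at 114 and 120 FPKM. The table places ADAM9 on an alternate contig of chromosome 8, so its value is uncertain. ADAM23 was at 0.634 and 1.42 FPKM, a ratio of 2.24 beside 2.28 for the similarly weak MMP24, and ADAMTS6 at 2.09 and 3.78 FPKM. ADAMTS9, which cuts proteoglycans, had a log2 difference of -0.57. These differences between lists were not tested.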

How the data were processed

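RNA of 2 TPC1-Vector and 2 TPC1-C1orf106 libraries was sequenced. Per the labels, the authors processed the reads with CASAVA, Cufflinks 2.1.1 and Cuffdiff on hg38, and deposited FPKM values, 1 per gene and group. The aligner and annotation are not given in the sources used here. Labels and methods name different library kits. The deposited table also holds the authors' log2 ratio, p-value and q-value, which were not used. The limma test that values per library would allow could not be run. Depth is unknown, so no counting interval can be given.

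Genes averaging 0.5 FPKM or more were kept, and differences of log2(FPKM + 0.5) were called at 2-fold and 1.5-fold. Intervals of the table, counted there from 0, are printed from 1. Named genes were the MMPs, C1orf106, TIMP1, TIMP2, TIMP3 and RECK, neighbours within 1 Mb that were past 2-fold or shared a position, the 3 genes nearest to MMP1 and MMP9, and from each list the most abundant gene, the 3 largest differences and any gene past 2-fold. Some genes that meet these criteria are not reported here. FURIN, PAX8, TG, TSHR, SLC5A5, CD14, CD68, KRT8, KRT18, TEK, TSPAN12, SERPINH1, overlapping genes of GENCODE release 29 and MMP3 were named for background. The genes and lists were chosen with earlier results of these data known. The range of 0.5 to 2 FPKM was chosen after the data were seen. Python 3.11.15, numpy 2.4.6, pandas 2.3.3 and matplotlib 3.10.9 were used. The fold calls were tested on simulated data built only from genes far above the level of MMP1, MMP9 and MMP24. That test therefore does not cover the calls of such weak genes.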

Additional observations from a re-analysis of the deposited data

How the results depend on the processing

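No paired analysis was possible because the table has 1 value per group, and for the same reason leaving out each library was not run. The alternatives were pseudocounts of 0.1 and 1 FPKM and none, no filter, a minimum mean of 1 FPKM, median-of-ratios scaling, quantile normalization, and subtraction of the median of neighbours within 1 Mb. A window of 5 Mb was compared for the excess of MMP9 and MMP1 and is not part of the next count. Each of the 74 differences of single MMPs under the other alternatives kept its sign. A pseudocount or a filter cannot change a sign, so most of these outcomes were fixed in advance. Only the scaling, the quantile normalization and the subtraction of neighbours could have changed one. With a pseudocount of 1 FPKM, 1 MMP was at least 2-fold higher in place of 2, because the pseudocount shrinks weak genes. With the minimum mean of 1 FPKM, 5 MMPs were left, of which 3 were higher, 0 were at least 2-fold and 0 at least 1.5-fold higher, because MMP1, MMP9 and MMP24 are under that mean. The shares of all genes were not computed at these 2 settings, so these counts have no background beside them. The median of the MMPs ranged from 0.17 to 0.45. MMP9 ranged from 1.07 to 2.99 and MMP1 from 0.75 to 1.86. The share of MMP14 in the summed level lay between 73.2% and 73.5% in TPC1-Vector and between 74.3% and 74.5% in TPC1-C1orf106. The medians of the related lists kept their sign, and that of the docking and inducer proteins went from -0.043 to -0.19 with the minimum mean of 1 FPKM, because the filter removes DDR2. The median of the ADAM and ADAMTS proteases went from 0.072 to 0.044 once the columns were quantile-normalized; the cause was not tested. The unknown depth limits what can be said of MMPs under 2 FPKM.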
